A study of Bubalus bubalis with 6 samples.

Results

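The miR-23, miR-24 and miR-27 miRNAs were followed in cell-free saliva of 3 healthy Murrah buffaloes (Bubalus bubalis), a river-type dairy breed. Each animal, wildtype per the labels, was sampled once at estrus, the phase of mating receptivity, and once at diestrus, when the corpus luteum is active. This gave 6 small RNA libraries, 3 per phase. The members are the table rows named miR-23a, miR-23b, miR-24, miR-27a or miR-27b, with or without an arm suffix, and 6 of the 273 rows met this rule: miR-23a, miR-23b-3p, miR-24-3p, miR-27a-3p, miR-27a-5p and miR-27b. The rows were chosen by name, with no threshold on a level, but the set was selected on sight of the estrus and diestrus values of these same libraries, so every value by phase below is a description and carries no test of its own.

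miR-23, miR-27 and miR-24 are made together. In mammals they are cut from shared primary transcripts at a pair of genomic clusters, one holding miR-23a with miR-27a and one holding miR-23b with miR-27b, and both clusters hold a copy of miR-24. The a and b forms of miR-23, and likewise of miR-27, have the same seed and nearly the same mature sequence, while the mature 3p strand of miR-24 is the same from both clusters. miR-23a is known for repressing glutaminase, miR-27 for repressing regulators of fat cell formation such as PPARG, and miR-24 for repressing cell cycle genes. The clusters are active in endothelial and blood-forming cells among others. miR-27a-5p is the strand of the miR-27a hairpin that is usually discarded.

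The deposited values are counts divided by a size factor for each library, and whole reads could be recovered from them. Depth ranged from 6749 to 27036 reads at estrus and from 3015 to 5548 at diestrus, so depth and phase cannot be told apart. A floor of 3 reads corresponded to 0.0111% of the deepest library and 0.0995% of the shallowest. Estrus replicate 3 stood apart from the other 5 libraries, with Spearman correlations of -0.18 to 0.17 across 58 miRNAs. Its label alone carries the tag Repl, which the submitters do not explain. Where a value below turned on this library, it is given without it too. The labels give no sequencing batch.

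The most regular feature of these miRNAs was that paralogs had almost the same reads in 5 of the 6 libraries, and separated in estrus replicate 3. miR-23a and miR-23b-3p had 263 and 265 reads in estrus replicate 1 and 21 each in estrus replicate 2. At diestrus they had 41 and 40 reads in replicate 1, 41 and 39 in replicate 2, and 75 and 74 in replicate 3. The counts were equal in 1 of 6 libraries and never more than 2 reads apart in these 5. If the rows were independent counts, the difference in estrus replicate 1 would have a counting SD of 22.98 reads, and that in diestrus replicate 3 an SD of 12.2 reads, against observed gaps of 2 and 1. Over these 5 libraries miR-23a summed to 441 reads and miR-23b-3p to 439.

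The miR-27 pair behaved alike. miR-27a-3p and miR-27b had 20 reads each in diestrus replicate 1, 6 each in replicate 2 and 8 each in replicate 3. They were thus equal in all 3 diestrus libraries. At estrus they had 27 and 30 reads in replicate 1 and 7 and 8 in replicate 2. Over these 5 libraries the sums were 68 and 72 reads.

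In estrus replicate 3 both pairs separated, in opposite directions with respect to the cluster of origin. miR-23a had 167 reads and miR-23b-3p 106, so miR-23a held 61.2% of the pair (95% Wilson interval 55.3 to 66.8). miR-27a-3p had 8 reads and miR-27b 108, so miR-27a-3p held 6.90% (95% Wilson interval 3.54 to 13.0). The more abundant form was therefore the a form for miR-23 and the b form for miR-27. For comparison, the miR-23 pair held 528 reads in estrus replicate 1, where miR-23a made up 49.8% (45.6 to 54.1), and 273 in estrus replicate 3. What set the library apart was not tested. These intervals cover counting error only and take the reads of both rows as separate.

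**Figure D1:**
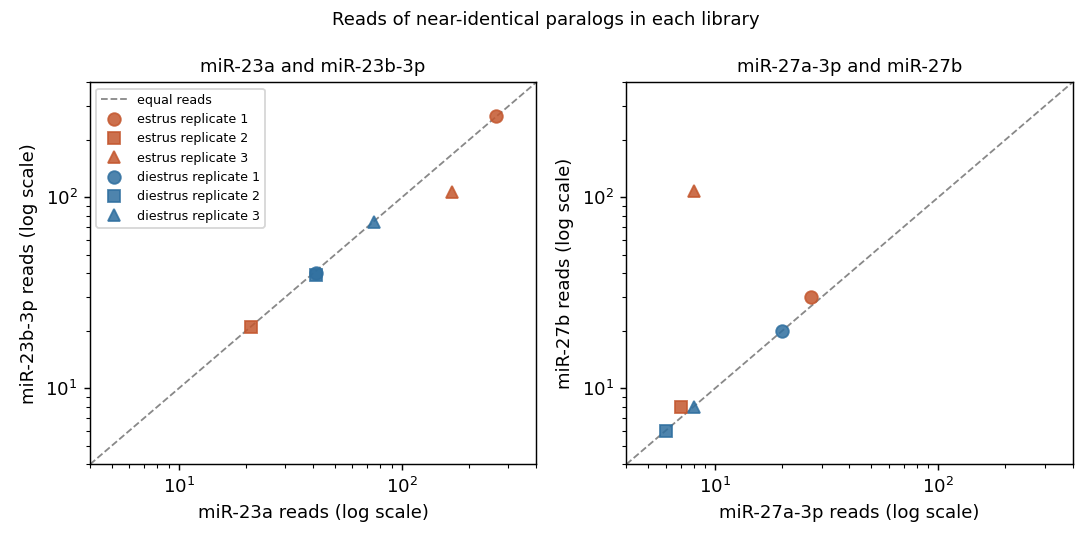
Reads of miR-23a against miR-23b-3p (left) and of miR-27a-3p against miR-27b (right) in each of the 6 libraries, both axes logarithmic; the dashed line marks equal reads, colour the phase and shape the animal. In 5 libraries the points lie on or beside the line, and estrus replicate 3 lies off it at 167 against 106 reads and at 8 against 108 reads.

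Other rows that carry the same number and a different letter were compared in the same way, a comparison chosen after the values were seen. Among such pairs with at least 10 reads together, the rows lay within 10% of their sum in 16 of 124 pair and library combinations outside estrus replicate 3 (12.9%), and in 4 of 66 in estrus replicate 3 (6.06%). These pairs share miRNAs with each other and were matched by name, not by sequence. By that measure both cluster pairs were near equal in 5 of 6 libraries. The sources used here do not state how a read that fits both paralogs was counted. A sum over the a and b rows may therefore count a read in both, and the summed share of all reads and the family shares are given below with all rows and with only the larger row of each pair. Shares of reads other than miR-1246 are given with all rows. Wilson intervals of sums and pairs take each read as counted once, which may not hold.

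Levels differed widely among the 6 miRNAs. They are compared as deposited values without correction for length or ligation efficiency, so the order is one of reads and not of molecules. The mean over the 6 libraries was 80.7 ± 41.8 for miR-23a and 77.7 ± 44.0 for miR-23b-3p (SD, n = 6). miR-27b followed at 21.0 ± 17.9 and miR-27a-3p at 17.5 ± 19.8. miR-24-3p had 4.69 ± 1.77 and miR-27a-5p 0.24 ± 0.59. Within each pair the means differed by less than either SD over the 6 libraries, though the rows separated in estrus replicate 3. miR-23b-3p exceeded miR-27b in 5 of 6 libraries, and miR-27a-3p exceeded miR-24-3p in 5 of 6, with estrus replicate 3 the exception both times. The filter for the test across miRNAs, a mean of at least 5, fell between miR-27a-3p and miR-24-3p. It passed 4 of the 6 miRNAs, and miR-24-3p and miR-27a-5p stayed below it.

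miR-23a, the most abundant of the 6, had deposited values of 104, 38.0 and 30.0 in estrus replicates 1, 2 and 3, and of 117, 66.8 and 129 in diestrus replicates 1, 2 and 3. Each estrus value lay below the diestrus value of the same animal, but the phases overlapped, because estrus replicate 1 exceeded diestrus replicate 2. On the log2(value + 1) scale the differences within animals were -0.17, -0.80 and -2.06. Mean values were 57.2 ± 40.4 for the estrus libraries and 104 ± 32.9 for the diestrus libraries (SD, n = 3 each). The log2 change, estrus minus diestrus, was -1.01 with a standard error of 1.46 (limma), smaller than its error.

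miR-23b-3p had 104, 38.0 and 19.1 at estrus and 114, 63.5 and 127 at diestrus. Every animal again had its lower value at estrus, with overlapping phases, and in 5 of the libraries its level was nearly that of miR-23a. limma put the change at -1.18 on the log2 scale, with a standard error of 1.45. Animal 3 contributed most of it, with a difference of -2.67 against -0.12 and -0.73 in the other animals. Without estrus replicate 3 the change of miR-23a was -0.66 and that of miR-23b-3p -0.62.

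miR-27a-3p had 10.6, 12.7 and 1.44 at estrus and 57.0, 9.77 and 13.7 at diestrus. Animals 1 and 3 had the lower value at estrus, and animal 2 had it at diestrus. The log2 change of -1.52 was about the size of its standard error of 1.47. It was -0.73 without estrus replicate 3 and -0.79 without diestrus replicate 1, the library with the highest value.

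miR-27b had 11.8, 14.5 and 19.4 at estrus and the same diestrus values as miR-27a-3p. Animal 1 alone had the lower value at estrus. The fitted log2 change was -0.40 (standard error 1.45). Without diestrus replicate 1 this turned to 0.34, and without estrus replicate 3 it was -0.57. The high diestrus mean of both miR-27 rows, 26.8 ± 26.2, thus rested on 1 library, in which each row had 20 reads.

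miR-24-3p, which both clusters encode, was read rarely. The estrus libraries held 15, 1 and 35 reads of it and the diestrus libraries 2, 2 and 3, so 3 of 6 libraries lay below the floor of 3 reads and diestrus replicate 3 lay on it. As deposited values these were 5.91, 1.81 and 6.30 at estrus and 5.70, 3.26 and 5.16 at diestrus. The phase means were 4.67 ± 2.49 and 4.70 ± 1.28, and the phases overlapped. A fit with no filter on low values gave it a log2 change of -0.10 (standard error 1.30).

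miR-27a-5p was read only in estrus replicate 3, with 8 reads, as many as miR-27a-3p had there. The 5p strand thus made up 8 of the 16 miR-27a reads of that library (95% Wilson interval 28.0% to 72.0%). For libraries with no 5p read, the limit that a count of 0 allows is given, 3 reads over the miR-27a reads, beside the upper Wilson bound. In estrus replicate 1 there were 0 among 27 reads, which allows a share of up to 11.1% (Wilson bound 12.5%), and in diestrus replicate 1 there were 0 among 20, which allows up to 15.0% (Wilson bound 16.1%). In the other 3 libraries miR-27a-3p itself had between 6 and 8 reads, and the limit of 3 reads was 37.5% or higher.

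**Figure D2:**
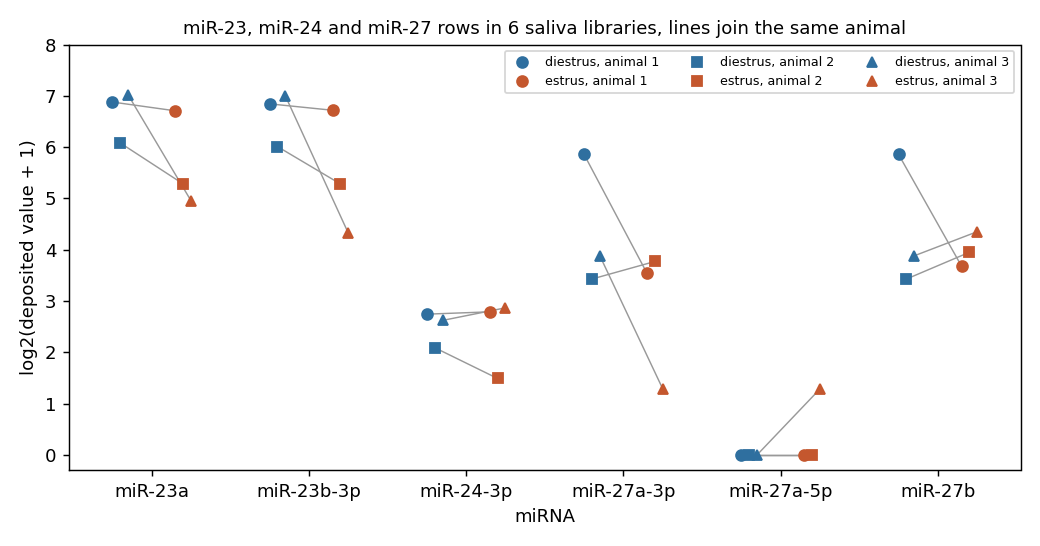
log2(deposited value + 1) of each of the 6 miRNAs in each library, with lines joining the diestrus (left, blue) and estrus (right, orange) library of an animal and shapes marking the animal. All 3 lines fall for miR-23a and miR-23b-3p, with overlapping phases, whereas the lines of miR-27a-3p, miR-27b and miR-24-3p run in both directions.

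None of the 4 tested miRNAs passed an adjusted p-value of 0.05 in limma, where 0% of the 58 tested miRNAs did. At an unadjusted p-value below 0.05 it was 0 of 4, beside 13.8% of all tested. On the recovered reads, edgeR and DESeq2 also called 0 of 4 at either threshold, beside 17.2% of the 58 miRNAs in edgeR and 16.7% of the 48 with a p-value in DESeq2 at the unadjusted one, and 0% in both at the adjusted one. A value below that of diestrus in all 3 animals was seen for miR-23a and miR-23b-3p, and for 10.3% of all tested miRNAs. None of the 4 had phases that did not overlap, beside 5.17% of all tested in the direction lower at estrus and 1.72% in the direction higher. With the phase already used to propose the set, nothing further is read from these shares.

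All 4 log2 changes were negative, while 27.6% of all tested miRNAs had a negative change. Their median was -1.09, against 0.90 for the 58. Counted from the lowest change, miR-27a-3p ranked 6, miR-23b-3p 8, miR-23a 11 and miR-27b 14 of 58. Relative to the median of all tested miRNAs the changes were -2.42 for miR-27a-3p, -2.07 for miR-23b-3p, -1.91 for miR-23a and -1.29 for miR-27b. In the 5 libraries where paralogs had near-equal reads, the 4 rows give 2 distinct levels, not 4. The median of all tested miRNAs moved with the scaling, from 1.26 for CPM of the column total to -0.19 for totals without miR-1246, and the change of miR-23a moved with it from -0.77 to -2.33. The sign of all 4 was negative under these scalings and after median centring.

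**Figure D3:**
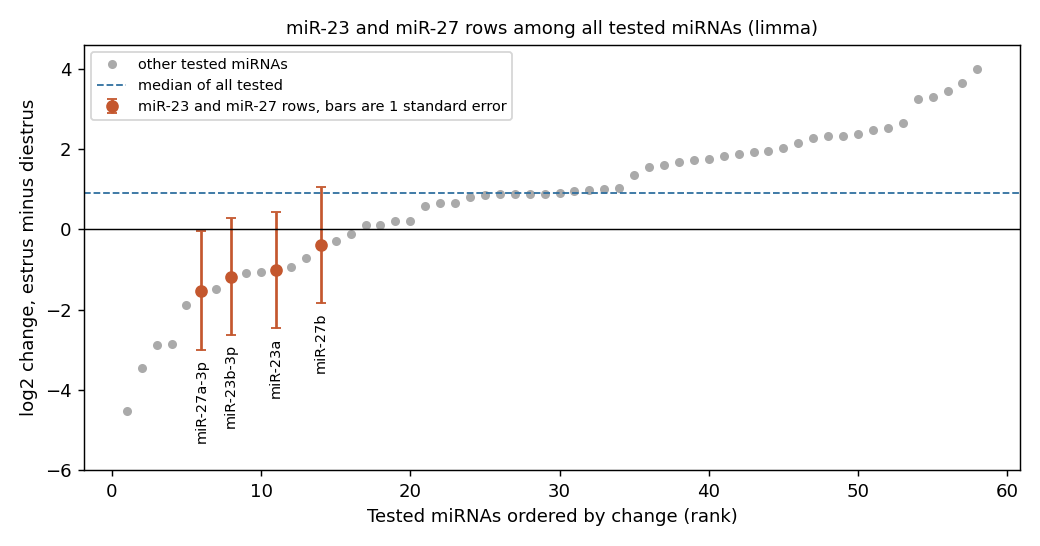
log2 change (estrus minus diestrus, limma) of the 58 tested miRNAs in rank order, with the 4 tested miR-23 and miR-27 rows in orange and bars of 1 standard error; the dashed line is the median of all tested, 0.90. The 4 rows lie among the 16 negative changes at ranks 6 to 14, and the bars of 3 of them cross 0, while that of miR-27a-3p ends just below it.

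The summed share of the 6 rows depended on what it was measured against. They held 1475 of 64277 recovered reads, or 2.29%. The share was 3.56%, 0.86% and 1.60% in estrus replicates 1, 2 and 3 and 4.08%, 1.69% and 3.32% in diestrus replicates 1, 2 and 3. Each animal had the smaller share at estrus. Mean shares were 2.00% ± 1.39 for estrus and 3.03% ± 1.22 for diestrus (SD, n = 3 each). Their difference, -1.03 percentage points, was smaller than either SD between libraries. Within animals 1, 2 and 3 it was -0.52, -0.83 and -1.73 percentage points, with an SD of 0.62 (n = 3). It moved to -1.80 without estrus replicate 1, -1.70 without diestrus replicate 2, -0.50 without diestrus replicate 1 and -0.46 without estrus replicate 2, and was -0.82 without estrus replicate 3. With only the larger row of each pair the means were 1.15% ± 0.70 and 1.56% ± 0.62.

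miR-1246 held between 1.20% and 20.0% of reads at estrus and between 55.0% and 76.2% at diestrus, so it sets much of the denominator. Among reads other than miR-1246, the 6 rows made up 3.60%, 1.07% and 1.63% at estrus and 17.2%, 3.76% and 12.6% at diestrus. The phases then did not overlap, by a margin between 3.60% in estrus replicate 1 and 3.76% in diestrus replicate 2. Their Wilson intervals, 3.33 to 3.89 and 3.08 to 4.58, did overlap, with each read taken as counted once. On this denominator miR-23a and miR-27a-3p had phases that did not overlap and were lower at estrus, as did 17.5% of the 57 tested miRNAs other than miR-1246, and 0% were higher without overlap. The difference of the means was -9.06 percentage points.

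**Figure D4:**
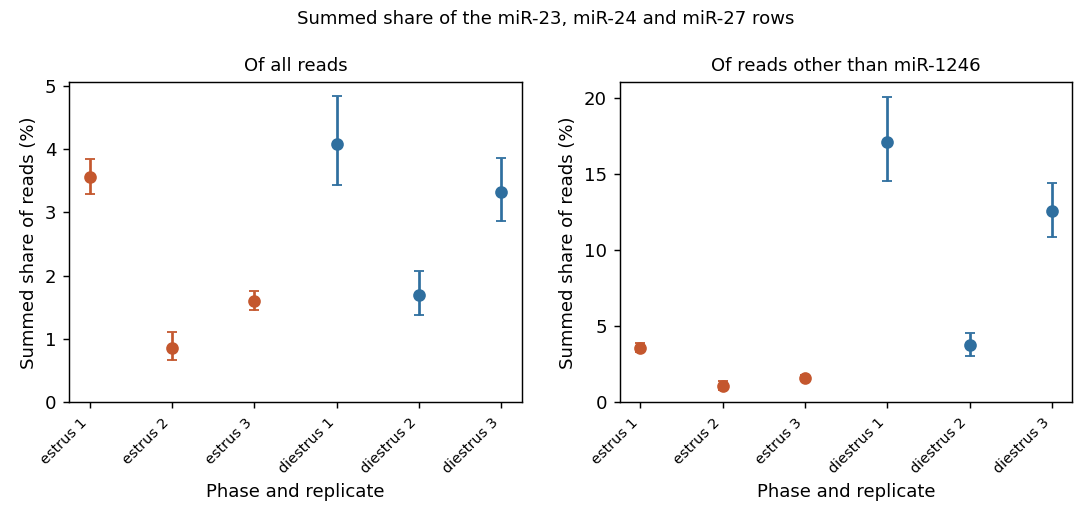
Summed share of the 6 rows in each library, as percent of all reads (left) and of reads other than miR-1246 (right), with 95% Wilson intervals. These cover counting error only and take each read as counted once. Orange is estrus and blue diestrus. The phases overlap on the left, and on the right diestrus replicates 1 and 3 stand at 17.2% and 12.6% while diestrus replicate 2, at 3.76%, lies next to estrus replicate 1.

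The split of the reads over the 3 families is free of the scaling between libraries. miR-23 held the largest part in all 6 libraries, from 63.2% in estrus replicate 3 to 88.7% in diestrus replicate 3. miR-27 ranged from 9.50% in estrus replicate 1 to 32.5% in diestrus replicate 1. With only the larger row of each pair, both ends of the miR-27 range lay in the other phase, at 9.30% in diestrus replicate 3 and 36.5% in estrus replicate 3, with 31.7% in diestrus replicate 1. By phase, miR-23 held 74.5% ± 12.5 at estrus and 79.9% ± 12.3 at diestrus, and miR-27 held 21.4% ± 10.4 and 18.3% ± 12.4 (SD, n = 3 each). Without estrus replicate 3 the estrus means were 80.2% and 17.7%. The larger rows alone gave 69.3% ± 16.5 and 78.7% ± 11.9 for miR-23 at estrus and diestrus, and 24.3% ± 13.6 and 17.8% ± 12.2 for miR-27. Without estrus replicate 3, the estrus values left were 85.5% and 70.0% for miR-23 and 9.68% and 26.7% for miR-27, around the diestrus means. With either counting, both differences were smaller than the spread between libraries, and high and low miR-27 shares occurred in both phases.

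miR-24 held between 1.63% and 2.50% in 5 libraries and 8.10% in estrus replicate 3 (95% Wilson interval 5.88 to 11.1). The interval in estrus replicate 1, the other library with many reads of these miRNAs, was 1.52 to 4.08. Estrus replicate 2, with 58 reads of these miRNAs, allowed up to 9.14%. With only the larger row of each pair, miR-24 held 11.0% in estrus replicate 3 and between 3.17% and 4.84% elsewhere, and miR-23 held 52.5% in estrus replicate 3.

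**Figure D5:**
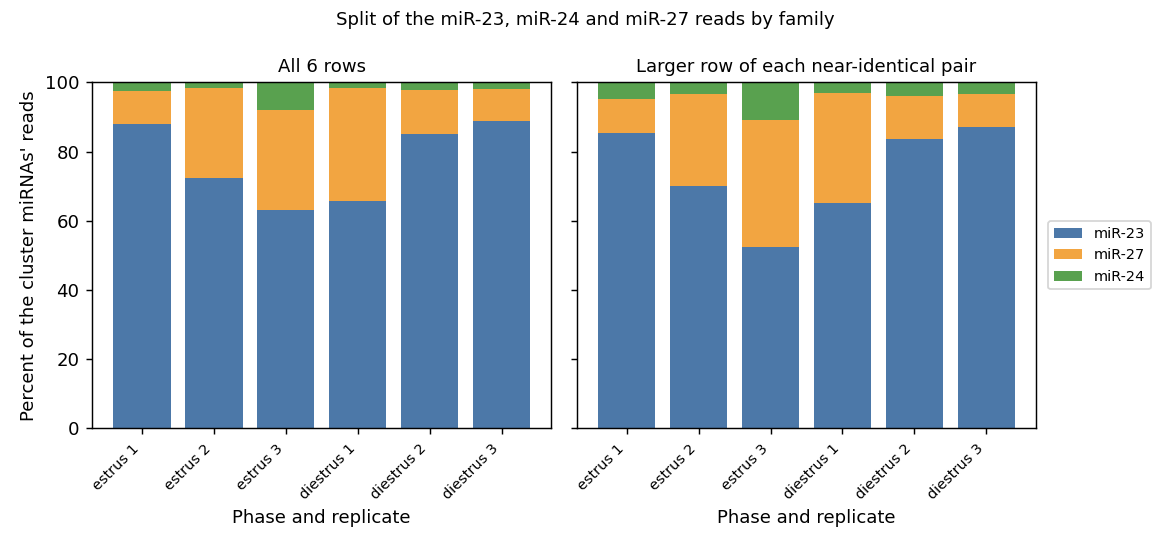
Percent of the reads of the 6 rows that fell to miR-23, miR-27 and miR-24 in each library, with all 6 rows (left) and with the larger row of each near-identical pair (right). miR-23 is the largest part throughout, and the miR-24 part is largest in estrus replicate 3, at 8.10% on the left and 11.0% on the right.

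Across the 6 libraries, miR-23a followed miR-23b-3p with a Pearson correlation of 0.98 on the log2(value + 1) scale, with reads at most 2 apart in 5 of them. It followed miR-27a-3p at 0.71, miR-24-3p at 0.39 and miR-27b at 0.19, and miR-27a-3p and miR-27b correlated at 0.54. These values rested on estrus replicate 3. Over the other 5 libraries miR-23a correlated with miR-27a-3p at 0.39, with miR-24-3p at 0.97 and with miR-27b at 0.34, and miR-27a-3p and miR-27b at 0.996. miR-24-3p had at most 3 reads in 4 of those 5 libraries. Outside the clusters, the miRNAs most like miR-23a were miR-153 at 0.68, miR-142-5p at 0.54 and miR-11976 at 0.50; without estrus replicate 3 these were 0.17, 0.17 and -0.12. Those most like miR-24-3p were miR-125b at 0.69, miR-125a at 0.63 and miR-200a at 0.63, and those most like miR-27b were miR-15b at 0.70, miR-320a at 0.66 and miR-191 at 0.60. Without that library these were 0.96, 0.57 and 0.57 for miR-24-3p and 0.76, 0.66 and 0.81 for miR-27b. These values describe 6 libraries from 3 animals, which share a size factor with every miRNA in them.

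Marker lists of possible source cells are given beside these values, and their part in the results was not tested. limma called 0 rows of any list, and no endothelial, stromal or erythrocyte row passed the filter. The 7 listed leukocyte rows, of which 2 were tested, summed to deposited values of 38.6 to 130 at estrus and 160 to 319 at diestrus, without overlap. Of their reads, 92.3% belonged to miR-223, a myeloid miRNA, and miR-142-5p, so the sum describes those rows. Among single miRNAs, 5.17% of the 58 tested were lower at estrus without overlap, and the list was written with earlier results known. miR-150, miR-155 and miR-146a were read only in estrus replicate 3 and were at 0 in the other 5 libraries. The 7 epithelial rows, 4 of them tested, summed to 19.9 to 458 at estrus and 22.8 to 30.9 at diestrus, and to at most 73.3 at estrus without estrus replicate 3. The 2 listed endothelial rows, miR-221 and miR-222, summed to 0 to 13.9 at estrus and 0 to 3.44 at diestrus, and to at most 1.18 at estrus without estrus replicate 3. The 5 stromal rows summed to at most 14.2 and the 1 listed erythrocyte row, miR-486, to at most 1.72. In a cell-free fluid, the number of releasing cells and the RNA released per cell cannot be told apart. Nor can either be told from depth and the miR-1246 share, which differed between the phases.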

How the data were processed

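Small RNA was sequenced from cell-free saliva with the QIAseq miRNA kit, per the labels' protocols. Per the submitters' processing notes, cutadapt, UMI-tools, Bowtie, SAMtools, featureCounts and DESeq2 were used. Their settings, the reference and the handling of reads that fit several miRNAs are not given in the sources used here. The authors deposited 1 table of a normalized signal, counts divided by a size factor. In each column 100% of values were multiples of the smallest value (within 0.001 reads), and the reciprocal steps equalled DESeq2 size factors recomputed from the recovered reads.

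limma 3.58.1 (R 4.3.3, mean-variance trend) was fitted to log2(value + 1) for the 58 miRNAs with a mean of at least 5, Benjamini-Hochberg adjusted. A check on simulated tables required recovery of known changes only at low spread between libraries. It does not show how the fit performs on these data. Fold changes on this scale understate those of low miRNAs. Each test used 232 degrees of freedom, where 1 miRNA alone has 4, because no spread of variances beyond the trend was estimated. edgeR 4.0.16 and DESeq2 1.42.0 on recovered reads were alternatives, as were other pseudocounts, filters, scalings, an animal block and leaving out each library. Whether the unique molecular indices were collapsed is not stated.

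The replicate number is the animal number in the labels, which pairs the samples. Deviations from the phase means correlated within animals at -0.0046, 0.37 and 0.30. All 6 miRNAs are named, with the 3 others most correlated with the most read miRNA of each family. The miRNAs and marker lists were chosen with earlier results of these data known. Genomic positions and mature sequences were not analysed here.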

Additional observations from a re-analysis of the deposited data

How the results depend on the processing

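With the animal as a replicate block the count of called miRNAs stayed at 0 of 58, and 0 of the 4 tested cluster miRNAs were called; at an unadjusted p-value below 0.05 it gave 6 of 58 in place of 8 and 0 of 4 in both fits, and the block changed no adjusted call. Over all alternatives run, the count of called cluster miRNAs was 0. Over all tested miRNAs it was 0 except for 1 with totals without miR-1246, and it ranged from 0 to 6 over the fits that each left out 1 library, with 6 only without estrus replicate 2. The log2 changes of miR-23a, miR-23b-3p and miR-27a-3p were negative in all 16, 16 and 15 alternatives, and that of miR-27b in 14 of 15. miR-27b turned from -0.40 to 0.34 without diestrus replicate 1, within a range of -0.88 to 0.34 over the fits without 1 library. These ranges were -1.54 to -0.66 for miR-23a, -1.81 to -0.62 for miR-23b-3p and -2.00 to -0.73 for miR-27a-3p. In the same order, totals without miR-1246 gave -2.33, -2.49 and -2.79, and median centring -1.83, -2.00 and -2.35. A pseudocount of 10 gave -0.88, -0.99 and -0.85. For miR-27b, totals without miR-1246 gave -1.66, median centring -1.22, edgeR -1.20, DESeq2 -0.80 and CPM of the column total -0.14. The difference in summed share, -1.03 percentage points, became -9.06 for shares without miR-1246, whose denominator shrinks most at diestrus by construction. Leaving out 1 library gave values from -1.80 (estrus replicate 1 left out) to -0.46 (estrus replicate 2 left out). With only the larger row of each pair, an alternative added after the data were seen, it was -0.41. That value was not recomputed without single libraries. Its shares overlapped, at 1.84%, 0.44% and 1.18% for estrus and 2.09%, 0.88% and 1.70% for diestrus. A mean of at least 50 left no value for the miR-27 rows. At diestrus, 3 reads are 0.0541% to 0.0995% of a library, so miR-24-3p and miR-27a-5p are at the limit of detection there.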
